A study of Mus musculus with 8 samples.

Results

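Interferon response genes were followed in RNA from Tomato-positive and Tomato-negative kidney cells of p16-tdTomato mice, which by their name carry a red fluorescent reporter for p16, a cyclin-dependent kinase inhibitor used as a marker of senescent cells. The members were gene symbols of the deposited count table that matched the names of the Oas, Oasl, Ifit, Ifitm, Ifi, Irf and Gbp families or of the STAT factors of the pathway, or that were Isg15, Isg20, Mx1, Mx2, Rsad2, Usp18, Bst2, Ddx58, Ifih1 or Xaf1, and that had 10 or more counts in at least 4 libraries. Of 25240 symbols in the table, 79 matched and 58 met the count minimum, and all 58 were among the 14284 genes tested. Name matching also took in Irf2bp1 and Irf2bp2, which encode IRF2-binding proteins, and Irf2bpl, which encodes a relative of them. These genes do not encode interferon regulatory factors. Tomato-positive cells (4 libraries) were compared with Tomato-negative cells (4 libraries), and each Tomato-positive library shared its title identifier (CKD523_2, CKD523_3, CKD627_1 or CKD627_2) with a Tomato-negative one. All 8 libraries came from mice of the p16-tdTomato genotype with chronic kidney disease induced by an adenine-rich diet, so no library represents a healthy kidney or a mouse without the reporter. The labels name the cells proximal tubular epithelial cells of the kidney; the sources used here do not give strain, age, sex, time on the diet, how the reporter was built, or whether an identifier is 1 animal or a pool. Where the libraries of a group are not from separate animals, their spread, and so every p-value, may be technical.

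Interferons are secreted proteins that warn cells of viral or other foreign nucleic acid. Type I interferons signal through the IFNAR1 and IFNAR2 receptor pair and the kinases JAK1 and TYK2 to a complex of STAT factors and IRF9, which binds the interferon-stimulated response element (ISRE), whereas interferon-gamma signals through IFNGR1, IFNGR2, JAK1 and JAK2 to STAT dimers, which bind the gamma-activated site (GAS). Their targets include enzymes and binding proteins that block viral replication, sensors that amplify the response and regulators that end it. Tubular epithelial cells carry receptors for both kinds of interferon, and an interferon response has been described in senescent cells.

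Libraries held 13474439 to 19886202 counts, and 3 counts correspond to 0.151 to 0.223 CPM (counts per 1000000 counts of the library) in them, a floor that covers counting error only. The tdTomato transcript averaged 3751 ± 443 CPM in Tomato-positive and 111 ± 36.5 CPM in Tomato-negative libraries (SD, n = 4 each), in the direction of the labels. All 14 proximal tubule markers were detected, with summed levels of 4995 to 13759 CPM in Tomato-positive and 7060 to 27344 CPM in Tomato-negative libraries. Markers of other nephron segments were present too. The 6 loop of Henle markers summed to 1774 to 6997 CPM in Tomato-positive and 3827 to 14714.5 CPM in Tomato-negative libraries. In libraries of CKD627 they summed to 5611 to 14714.5 CPM, against 4995 to 8722 CPM for proximal tubule markers. In libraries of CKD523 the sums were 1774 to 4205 CPM and 13459 to 27344 CPM. The 8 principal cell markers of the collecting duct summed to 1018 to 5648 CPM in Tomato-positive and 217 to 2461 CPM in Tomato-negative libraries.

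Of the 58 interferon response genes, 44 had a higher and 14 a lower fitted level in Tomato-positive than in Tomato-negative cells in the paired fit described here. Of all 14284 genes tested, 7219 were higher and 7065 lower in that fit. Some members are close copies that may share reads, so the 58 are not all separate observations. In the fit without pairs (edgeR quasi-likelihood test, Benjamini-Hochberg adjustment over all 14284 genes, threshold 0.05), 1 of 58 members passed, the oligoadenylate synthetase gene Oas2, which rose in Tomato-positive cells; in that fit 0.595% of all tested genes passed, 0.364% higher and 0.231% lower in Tomato-positive cells. With the shared identifier as a block (the paired fit), 12 of 58 members passed (20.7%), against 7.62% of all tested genes. In that fit 9 rose in Tomato-positive cells (Oas2, Gbp9, Ifi44, Ifi47, Ifit1, Oasl2, Irf1, Ddx58 and Irf2bpl), where 3.82% of all genes rose, and 3 fell (Ifit3, Ifit3b and Ifi30), where 3.81% of all genes fell. The median paired log2 difference was 0.37 over the members and 0.0056 over all genes tested, and by role it ran from -0.12 for the 5 Ifit genes to 1.22 for the 7 Oas genes. In bulk samples fewer cells of a type and less RNA per cell cannot be told apart. The member count in the paired fit fell to 3 without the pair CKD523_3 or without the pair CKD627_2. These were Oas2, Ifit3 and Ifit3b each time. The member count was 7 without CKD523_2 and 13 without CKD627_1. Over all tested genes the count of 1089 became 192 without CKD523_3, 387 without CKD627_2, 548 without CKD523_2 and 1324 without CKD627_1. Without any 1 library, the fit without pairs passed 0 members and 6 to 29 of all 14284 tested genes.

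In 12 members every Tomato-positive library lay above every Tomato-negative library, against 7.13% of all tested genes, and in 3 every Tomato-positive library lay below, against 5.69%. Within the 4 pairs the Tomato-positive library was the higher one in all 4 for 22 members (19.9% of all genes did so) and the lower one in all 4 for 4 members (15.5% of all genes).

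**Figure D1:**
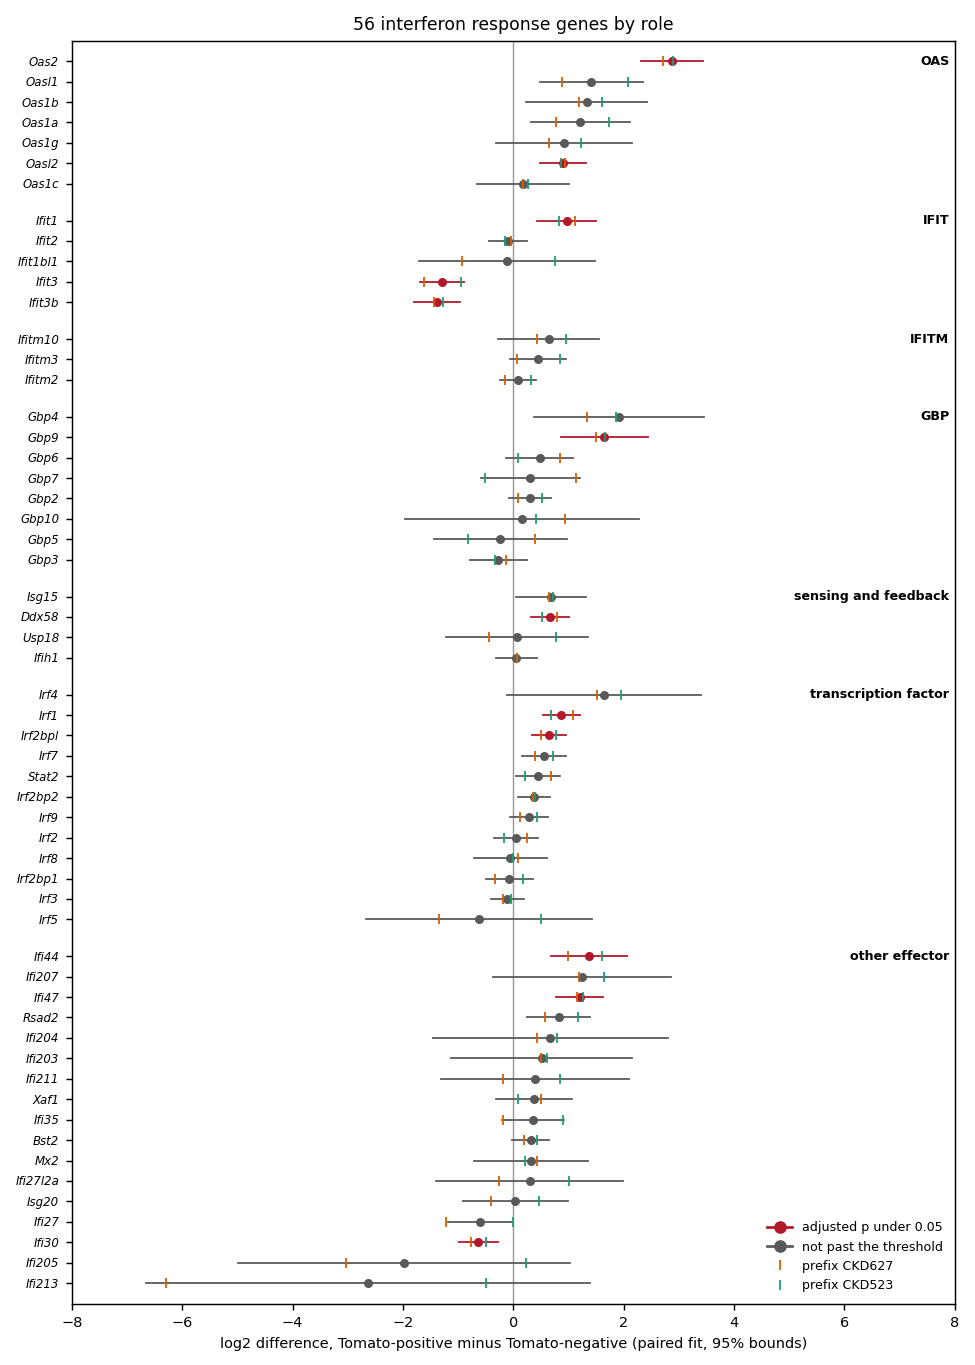
Log2 difference (Tomato-positive minus Tomato-negative) of 56 of the 58 members, grouped by role, with points for the paired fit, bars for its 95% interval and small marks for the difference within each title prefix. Oas2 lies farthest to the right with 2.87, and among the members past the threshold Ifit3b lies farthest to the left with -1.38. The wide intervals at the left belong to Ifi205 and Ifi213, which have few counts.

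Levels between genes are compared in CPM per kilobase of exon (GENCODE M21). On that scale Ifitm2 was the most abundant member, with 124 ± 32.0 in Tomato-positive and 120 ± 53.9 in Tomato-negative cells, followed by Irf2bpl with 91.3 ± 7.07 and 57.9 ± 14.4. These 2 neighbours in the order overlapped between libraries. Of the 50-base exon stretches of Ifitm2, 48.5% also occur in other genes, so its level, place and difference between groups are uncertain. Irf1, the fifth in order over all libraries, had 80.5 ± 15.9 CPM per kilobase in Tomato-positive and 43.7 ± 13.3 in Tomato-negative cells. The least abundant member, Ifi213, averaged 0.0372 ± 0.0744 in Tomato-positive and 0.0981 ± 0.0761 CPM per kilobase in Tomato-negative cells (SD, n = 4 each).

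Irf1 encodes a transcription factor that is itself interferon-induced and that drives many interferon targets. Below, the 4 values of a group are in the order CKD523_2, CKD523_3, CKD627_1 and CKD627_2. Irf1 had 384, 348, 236 and 312 CPM in Tomato-positive libraries, against 233, 204, 128 and 130 CPM in Tomato-negative libraries. The groups did not overlap, since the lowest Tomato-positive library (CKD627_1) was above the highest Tomato-negative one (CKD523_2). Its paired log2 difference was 0.87 ± 0.15 (SE), or 1.83-fold, with an edgeR adjusted p of 0.0127; without pairs the adjusted p was 0.188. The gene lies on the plus strand at chr11:53770014-53778374 (GRCm38). Its promoter window from RefSeq (GRCm38.p6, chr11:53769764-53770063, plus strand, 250 bases before to 50 after a transcript start) is shown because it holds the STAT dimer motif, in capitals, starting 90 bases before the start.
Irf1 promoter: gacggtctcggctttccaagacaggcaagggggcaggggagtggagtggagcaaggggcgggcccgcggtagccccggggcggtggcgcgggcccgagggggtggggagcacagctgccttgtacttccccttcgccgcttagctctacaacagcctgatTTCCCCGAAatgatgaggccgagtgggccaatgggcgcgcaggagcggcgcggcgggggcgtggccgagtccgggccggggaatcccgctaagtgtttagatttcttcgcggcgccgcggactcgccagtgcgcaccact

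Of the 11 interferon regulatory factors and STATs among the members, Irf1 alone passed the paired test (9.09%, against 7.62% of all tested genes). Of the 11, 8 had positive differences. Irf7, the factor that amplifies type I interferon production, had 32.1, 27.0, 22.5 and 32.9 CPM in Tomato-positive libraries, against 20.1, 14.0, 19.6 and 22.5 CPM in Tomato-negative libraries. The lowest Tomato-positive and the highest Tomato-negative values were both 22.5 CPM when rounded, and the paired log2 difference was 0.55 ± 0.17 with an edgeR adjusted p of 0.0913. Stat2 differed by 0.45 ± 0.18 (adjusted p 0.153) and Irf9, the third subunit of the ISRE-binding complex, by 0.28 ± 0.15 (adjusted p 0.292).

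Irf2, which competes with IRF1 for its sites, differed by 0.05 ± 0.17, and Irf3, the constitutive factor that is activated by sensors of nucleic acid, by -0.11 ± 0.13 on the paired log2 scale. Irf4, Irf5 and Irf8, factors known mainly from blood cells, were low: their highest library held 13.7 CPM, and their paired log2 differences were 1.64 ± 0.77, -0.63 ± 0.90 and -0.05 ± 0.29. Of Irf2bp1, Irf2bp2 and Irf2bpl, Irf2bpl alone passed the paired test. It had 362, 350, 368 and 416 CPM in Tomato-positive libraries, against 204, 191, 230 and 322 CPM in Tomato-negative libraries, a paired log2 difference of 0.65 ± 0.13 with an edgeR adjusted p of 0.0236 (0.0970 without pairs). Its highest Tomato-negative value, in CKD627_2, was below its lowest Tomato-positive one. Irf2bp1 differed by -0.07 ± 0.19 and Irf2bp2 by 0.37 ± 0.13 (adjusted p 0.117).

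The 2'-5' oligoadenylate synthetases make a short RNA-like messenger that leads to the decay of viral and cellular RNA. All 7 Oas members had positive differences, with a median paired log2 of 1.22. Of the 7, 2 passed the paired test (28.6%, against 7.62% of all tested genes). The 7 were taken by name and include the OAS-like genes Oasl1 and Oasl2, and Oas1b, annotated as a polymorphic pseudogene (GENCODE M21). Oas2 had 20.5, 13.7, 24.5 and 39.2 CPM in Tomato-positive libraries, against 3.42, 1.05, 3.26 and 6.49 CPM in Tomato-negative libraries. The lowest Tomato-positive library was thus above the highest Tomato-negative library, and CKD627_2 was highest in both groups. Oas2 averaged 24.5 ± 10.8 CPM in Tomato-positive and 3.55 ± 2.23 CPM in Tomato-negative cells (SD, n = 4 each), a paired log2 difference of 2.87 ± 0.25 with a 95% interval of 2.31 to 3.44, or 7.32-fold, at an edgeR adjusted p of 0.00113. The call without pairs sat at the threshold (log2 2.77 ± 0.49, edgeR adjusted p 0.0497). Across the 19 settings without pairs its adjusted p (edgeR, DESeq2 or limma-voom) ranged from 2.5e-06 to 0.144. Oas2 missed the threshold there with upper-quartile scaling, library size only, no count filter and limma-voom, and without any 1 library. Those settings also include fits with the prefix as a covariate or on 1 prefix alone. Oas2 passed in each of the 12 settings with pairs. Oas2 lies at chr5:120730333-120749853 on the minus strand (GRCm38), and none of its 50-base exon stretches occurs in another annotated gene.

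Oasl2, an OAS-like protein with ubiquitin-like domains, had 12.3, 12.8, 28.7 and 28.9 CPM in Tomato-positive libraries, against 6.27, 6.78, 14.3 and 15.7 CPM in Tomato-negative libraries. Each pair showed the same direction, while the groups overlapped because both CKD627 pairs were higher than both CKD523 pairs. The paired log2 difference was 0.90 ± 0.18 (edgeR adjusted p 0.0227) and the value without pairs 0.91 ± 0.38 (adjusted p 0.250). Oasl1, a translational repressor of Irf7 in mice, had 8.53, 17.5, 13.4 and 7.89 CPM in Tomato-positive libraries, against 3.84, 2.05, 5.35 and 6.09 CPM in Tomato-negative libraries, and those groups did not overlap. Its paired log2 difference of 1.41 ± 0.41 missed the threshold with an edgeR adjusted p of 0.0750.

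The Oas1 genes are close copies in tandem on chromosome 5, and reads cannot always be told apart: 57.6% of the 50-base stretches of Oas1a also occur in Oas1g. Oas1a differed by 1.22 ± 0.40 (edgeR adjusted p 0.0993), Oas1b by 1.33 ± 0.48 (adjusted p 0.130) Oas1g by 0.92 ± 0.54 (adjusted p 0.327) and Oas1c by 0.17 ± 0.37 (adjusted p 0.816, higher in 2 of 4 pairs) on the paired log2 scale, and the values of Oas1a and Oas1g are uncertain for that reason. With the counts of all Oas1 genes added up, a step chosen after the values were seen, the paired log2 difference was 0.95 with an edgeR adjusted p of 0.0414, against 0.199 without pairs. Oas3 missed the count minimum, with 40 counts in the 4 Tomato-positive libraries, 12 in the 4 Tomato-negative libraries, and 21 of the Tomato-positive counts in CKD523_3.

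**Figure D2:**
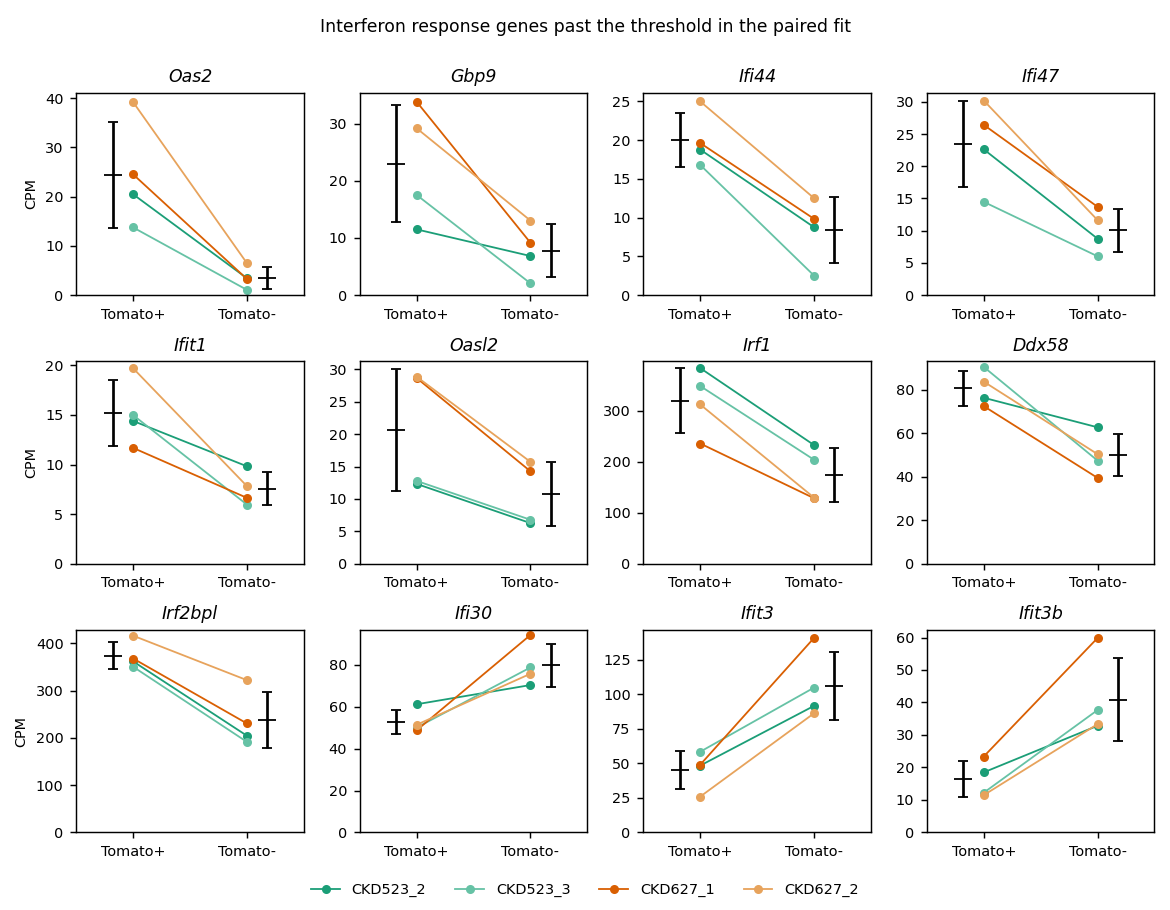
Level in CPM of the 12 members past the threshold in the paired fit, 1 panel a gene with an axis of its own from 0, with Tomato-positive libraries at the left, Tomato-negative libraries at the right, lines between libraries of the same identifier and black marks for the mean ± SD of each group (n = 4). Every line falls to the right for the 9 members that rose in Tomato-positive cells, and every line climbs to the right for Ifi30, Ifit3 and Ifit3b.

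The IFIT proteins bind foreign RNA and block its translation, and their genes are among the most strongly interferon-induced. Here 1 of the 5 Ifit members rose and 2 fell in the paired fit (60% called, against 7.62% of all tested genes). Ifit1, whose protein binds RNA that lacks cap methylation, had 14.4, 14.99, 11.7 and 19.7 CPM in Tomato-positive libraries, against 9.83, 5.96, 6.64 and 7.83 CPM in Tomato-negative libraries. Groups did not overlap, and the paired log2 difference was 0.97 ± 0.24, or 1.96-fold (edgeR adjusted p 0.0414). Ifit3, whose protein works together with IFIT1, had the opposite sign: 48.4, 58.4, 49.0 and 25.9 CPM in Tomato-positive libraries, against 91.6, 105, 141 and 86.2 CPM in Tomato-negative libraries. Its highest Tomato-positive library was below its lowest Tomato-negative one, and the paired log2 difference was -1.29 ± 0.17 (95% interval -1.69 to -0.90, edgeR adjusted p 0.00514). Ifit3b, its close copy, had 18.5, 12.2, 23.4 and 11.5 CPM in Tomato-positive libraries, against 32.8, 37.7, 59.8 and 33.3 CPM in Tomato-negative libraries, with a paired log2 difference of -1.38 ± 0.18 and an edgeR adjusted p of 0.00514. In both genes CKD627_1 was the highest Tomato-negative library and CKD627_2 the lowest Tomato-positive one.

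Without pairs the adjusted p was 0.105 for Ifit1, 0.0631 for Ifit3 and 0.0618 for Ifit3b (edgeR). Because 51.2% of the 50-base stretches of Ifit3 also occur in Ifit3b, the 2 are not separate evidence; their summed counts, a step chosen after the values were seen, gave a paired log2 difference of -1.30 with an edgeR adjusted p of 0.00332. Ifit2, in the same cluster, had 27.8, 25.2, 23.8 and 21.8 CPM in Tomato-positive libraries, against 30.0, 26.3, 23.9 and 23.0 CPM in Tomato-negative libraries, a paired log2 difference of -0.10 with a 95% interval of -0.45 to 0.24. Ifit1bl1 was low, between 0.603 and 2.00 CPM in Tomato-positive and 0.854 and 1.87 CPM in Tomato-negative libraries. Ifit1bl2, just outside the count minimum with 10 or more counts in 3 libraries, had 3 counts in Tomato-positive and 47 in Tomato-negative libraries; 7.06% of the 50-base stretches of Ifit1 occur in it.

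Ifit1, Ifit3 and Ifit3b, with opposite signs, lie within 1 cluster on chromosome 19, in the same orientation: Ifit3 at chr19:34583531-34588731, Ifit3b at chr19:34607970-34613401 and Ifit1 at chr19:34640871-34650009 (plus strand, GRCm38). Their promoter windows (RefSeq, GRCm38.p6, plus strand, 250 bases before to 50 after the start, at chr19:34640639-34640938 for Ifit1, chr19:34583279-34583578 for Ifit3 and chr19:34607707-34608006 for Ifit3b) are shown because each holds 2 ISRE cores (TTTC, any 2 bases, TTTC, on either strand), in capitals.
Ifit1 promoter: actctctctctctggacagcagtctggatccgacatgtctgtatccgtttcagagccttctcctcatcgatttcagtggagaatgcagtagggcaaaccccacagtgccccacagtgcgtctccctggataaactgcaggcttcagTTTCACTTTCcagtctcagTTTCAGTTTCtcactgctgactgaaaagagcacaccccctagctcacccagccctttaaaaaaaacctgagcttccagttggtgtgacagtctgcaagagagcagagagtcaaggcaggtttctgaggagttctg
Ifit3 promoter: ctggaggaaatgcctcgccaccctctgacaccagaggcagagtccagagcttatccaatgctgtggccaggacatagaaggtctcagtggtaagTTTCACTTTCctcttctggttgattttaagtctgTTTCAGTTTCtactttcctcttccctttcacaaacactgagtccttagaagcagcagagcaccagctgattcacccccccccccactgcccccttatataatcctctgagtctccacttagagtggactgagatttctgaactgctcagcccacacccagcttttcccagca
Ifit3b promoter: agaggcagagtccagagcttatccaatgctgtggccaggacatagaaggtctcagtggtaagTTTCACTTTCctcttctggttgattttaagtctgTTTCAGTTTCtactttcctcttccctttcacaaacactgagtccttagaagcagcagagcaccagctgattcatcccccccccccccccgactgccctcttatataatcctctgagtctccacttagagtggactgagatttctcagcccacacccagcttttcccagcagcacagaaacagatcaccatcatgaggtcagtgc
The cores start 104 and 85 bases before the transcript start in Ifit1, 156 and 122 in Ifit3, and 188 and 154 in Ifit3b. Windows of Ifit3 and Ifit3b share an unbroken run of 169 bases that contains both cores. The gene that rose and the 2 genes that fell were alike in the number of ISRE cores.

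Over all members with a RefSeq promoter window (45 of 58; Oas2 and Gbp9 were not among them), the ISRE core occurred in 25 genes (55.6%), against 3.99% of 27025 genes with windows of the same length. A GAS core (TTCNNNGAA, either strand, which can overlap an ISRE core) occurred in 12 of the 45 (26.7%), against 9.55% of all genes. Of the 9 members that rose in the paired fit, 7 had a window and 2 of these held an ISRE core (Ifit1 and Ddx58); of the 3 that fell, all 3 had a window and 2 held one (Ifit3 and Ifit3b). Among the 46 members not past the threshold, 35 had a window and 21 held an ISRE core. A match is a run of letters and not a shown binding site.

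IFITM proteins sit in membranes and hinder the entry of enveloped viruses. Ifitm3 had 22.5, 30.5, 66.4 and 57.9 CPM in Tomato-positive libraries, against 16.7, 11.3, 59.5 and 58.6 CPM in Tomato-negative libraries, so the values separated by the prefix of the identifier and overlapped between Tomato groups. Its paired log2 difference was 0.44 ± 0.22 (edgeR adjusted p 0.252). Ifitm2 differed by 0.08 ± 0.15 (adjusted p 0.768) and Ifitm10 by 0.64 ± 0.40 (adjusted p 0.362) on the same scale. Ifitm1, just outside the count minimum, had 18 counts in Tomato-positive and 58 in Tomato-negative libraries.

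Guanylate-binding proteins are interferon-gamma-induced GTPases that coat and break open the compartments of intracellular pathogens. Gbp9 rose in the paired fit, with 11.5, 17.5, 33.9 and 29.2 CPM in Tomato-positive libraries, against 6.83, 2.05, 9.16 and 13.05 CPM in Tomato-negative libraries. The groups overlapped, since the Tomato-negative library CKD627_2 was above the Tomato-positive library CKD523_2, yet all 4 pairs had the same sign. Its paired log2 difference was 1.65 ± 0.35, or 3.13-fold (edgeR adjusted p 0.0257; 0.158 without pairs). Gbp4 was lower in level, with 5.71, 7.69, 5.51 and 5.18 CPM in Tomato-positive libraries, against 3.35, 0.234, 1.11 and 3.14 CPM in Tomato-negative libraries. The groups did not overlap, but the paired log2 difference of 1.92 ± 0.68 did not pass (edgeR adjusted p 0.124). Gbp2, the most abundant of the 8 per kilobase, differed by 0.30 ± 0.17 (adjusted p 0.305). The remaining 5 ranged from -0.27 to 0.48 in paired log2 difference, and Gbp6 and Gbp10 share 70.7% and 84.1% of their 50-base stretches with other genes, so their values are uncertain.

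Among genes of sensing and feedback, Ddx58, which encodes the RNA sensor RIG-I, rose in the paired fit. It had 76.2, 90.4, 72.4 and 83.6 CPM in Tomato-positive libraries, against 62.7, 47.4, 39.4 and 50.3 CPM in Tomato-negative libraries, and the groups did not overlap. The paired log2 difference was 0.67 ± 0.15, or 1.59-fold (edgeR adjusted p 0.0323; 0.126 without pairs). Ifih1, which encodes the related sensor MDA5, had 22.0, 23.2, 17.5 and 28.0 CPM in Tomato-positive libraries, against 19.8, 21.1, 18.6 and 25.1 CPM in Tomato-negative libraries, a paired log2 difference of 0.05 with a 95% interval of -0.31 to 0.42. Isg15, a ubiquitin-like modifier, was higher in the Tomato-positive library of all 4 pairs (4.68, 7.86, 9.84 and 8.80 CPM in Tomato-positive libraries, against 2.78, 4.39, 6.95 and 4.95 CPM in Tomato-negative libraries), and its paired log2 difference of 0.69 ± 0.28 did not pass (edgeR adjusted p 0.167). Usp18, which removes ISG15 and shuts off the type I receptor, differed by 0.06 ± 0.57.

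Of 17 other effector genes, Ifi44 and Ifi47 rose and Ifi30 fell in the paired fit (17.65% called, against 7.62% of all tested genes). Ifi47, an immunity-related GTPase, had 22.6, 14.5, 26.4 and 30.2 CPM in Tomato-positive libraries, against 8.76, 6.02, 13.7 and 11.6 CPM in Tomato-negative libraries, with no overlap. Its paired log2 difference was 1.20 ± 0.19, or 2.30-fold (edgeR adjusted p 0.00961; 0.0815 without pairs). Ifi44 had 18.8, 16.8, 19.6 and 25.0 CPM in Tomato-positive libraries, against 8.76, 2.51, 9.84 and 12.5 CPM in Tomato-negative libraries, a paired log2 difference of 1.38 ± 0.30 with an edgeR adjusted p of 0.0297. Ifi30 encodes GILT, a lysosomal thiol reductase used in antigen processing, and stands apart from the antiviral genes in function. It had 61.2, 50.1, 48.8 and 51.4 CPM in Tomato-positive libraries, against 70.4, 78.8, 94.3 and 75.8 CPM in Tomato-negative libraries, with no overlap. Its paired log2 difference was -0.63 ± 0.16 with an edgeR adjusted p of 0.0439. Ifi30 passed in 7 of the 12 settings with pairs. It missed the threshold there when scaled by library size alone and without any 1 pair. Without pairs the edgeR adjusted p was 0.0819 for Ifi30 and 0.151 for Ifi44.

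Rsad2, which encodes the antiviral enzyme viperin, was higher in the Tomato-positive library of all 4 pairs (12.6, 30.4, 17.6 and 23.9 CPM in Tomato-positive libraries, against 9.40, 8.77, 9.78 and 18.3 CPM in Tomato-negative libraries). Its paired log2 difference of 0.82 ± 0.25 had an edgeR adjusted p of 0.0871. Bst2, encoding the virion tether tetherin, differed by 0.32 ± 0.15 (adjusted p 0.221), Xaf1, a pro-apoptotic factor, by 0.38 ± 0.31 (adjusted p 0.489), Mx2, a dynamin-like GTPase, by 0.32 ± 0.45 (adjusted p 0.711) and Isg20, an exonuclease, by 0.04 ± 0.42 (adjusted p 0.966). GENCODE M21 annotates Mx2 as a polymorphic pseudogene. Mx1 missed the count minimum with 51 counts in Tomato-positive and 16 in Tomato-negative libraries. The 6 members of the DNA-binding Ifi200 family (Ifi203, Ifi204, Ifi205, Ifi207, Ifi211 and Ifi213) stayed at or below 10.8 CPM in Tomato-positive and 9.10 CPM in Tomato-negative libraries, with paired edgeR adjusted p values of 0.314 to 0.788. Just inside the count minimum, with 10 or more counts in 4 libraries, were Ifi205 (22 counts in Tomato-positive and 52 in Tomato-negative libraries), Ifi213 (18 and 41) and Irf4 (167 and 42).

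**Figure D3:**
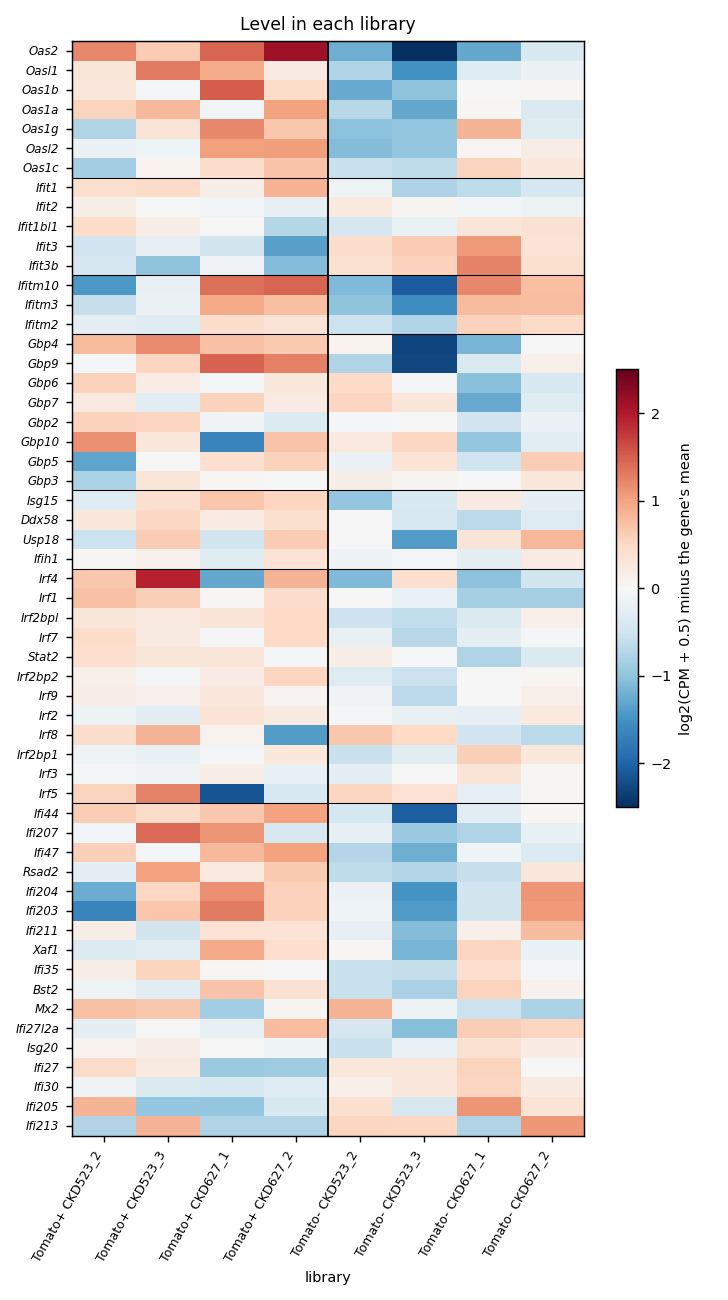
Heat map of 56 of the 58 members (rows, by role) in the 8 libraries (Tomato-positive columns left of Tomato-negative ones), coloured by log2(CPM + 0.5) minus the gene's mean over all libraries. The Oas rows are mostly higher on the left, the Ifit3 and Ifit3b rows are higher on the right, and Ifitm3 and Ifitm10 are higher in the CKD627 columns of both groups.

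Genes of the same pathway outside the name rule were grouped as ligands, receptors and signalling, as sensors and adaptors, as other interferon-induced effectors, and as interferon-gamma-inducible GTPases and chemokines. Without pairs 0 of the 80 tested genes passed in edgeR and 0 in limma-voom. At an unadjusted p under 0.05 edgeR gave 20 of them (25%), against 17.8% of all tested genes, and DESeq2 called 8 of the 80 (10%), against 7% of all tested genes. In the paired fit 8 of the 80 rose (10%) and 0 fell, against 7.62% of all tested genes called in either direction and 3.82% that rose. All 8 were among the 42 tested other effectors (19.0%, median paired log2 0.47). The median was 0.18 over 14 tested genes of receptors and signalling, 0.03 over 15 of sensors and adaptors and 0.25 over 9 of GTPases and chemokines. The paired count of these pathway genes was 0 without the pair CKD523_3 and 0 without CKD627_2, where 192 and 387 of all tested genes passed. Ligand transcripts were at or near 0: 10 of 12 interferon genes had 0 counts in every library, among them Ifnb1 and Ifng, which allows at most 0.151 to 0.223 CPM per library at a floor of 3 counts. The other 2, Ifna13 and Ifnz, had 3 and 7 counts, in Tomato-negative libraries.

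Receptor and kinase genes were expressed in both groups. Ifnar1 had 96.3, 96.6, 129 and 142 CPM in Tomato-positive libraries, against 74.8, 71.6, 80.9 and 97.1 CPM in Tomato-negative libraries, a paired log2 difference of 0.46 ± 0.13 with an edgeR adjusted p of 0.0689. Ifngr1 differed by 0.42 ± 0.13 (adjusted p 0.0909), Jak2 by 0.42 ± 0.17 (adjusted p 0.162) and Tyk2 by 0.51 ± 0.17 (adjusted p 0.107), whereas the partner chains Ifnar2 and Ifngr2 differed by 0.15 ± 0.15 and 0.17 ± 0.18. Jak1 differed by 0.27 ± 0.16. Among 15 tested sensors and adaptors, Sting1, the adaptor of cytosolic DNA sensing, had 50.1, 64.0, 41.8 and 36.0 CPM in Tomato-positive libraries, against 27.0, 16.4, 40.7 and 35.9 CPM in Tomato-negative libraries, so that the groups were apart in the CKD523 pairs and close in the CKD627 pairs; it did not pass (adjusted p 0.198). Mavs, the adaptor of RIG-I and MDA5, differed by -0.14 ± 0.13, and Adar, an RNA-editing enzyme, by 0.47 ± 0.17 (adjusted p 0.125). Cgas, the enzyme upstream of STING, was too low to test, with 72 counts in Tomato-positive and 20 in Tomato-negative libraries.

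Parp14, an ADP-ribosyltransferase, had the smallest p of these lists without pairs. It had 43.6, 44.1, 72.9 and 60.5 CPM in Tomato-positive libraries, against 28.8, 26.4, 21.5 and 32.6 CPM in Tomato-negative libraries, with no overlap, a paired log2 difference of 0.96 ± 0.21 and an edgeR adjusted p of 0.0287. Uba7, the activating enzyme for ISG15, rose by 1.06 ± 0.18 (paired log2, edgeR adjusted p 0.0127), with 26.6 to 52.1 CPM in Tomato-positive and 9.94 to 24.7 CPM in Tomato-negative libraries. Trim30a rose by 1.25 ± 0.27, Slfn2 by 1.10 ± 0.26, Lgals3bp by 0.69 ± 0.13 and Dtx3l, the ubiquitin ligase partner of PARP9, by 0.70 ± 0.17 on the same scale.

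**Figure D4:**
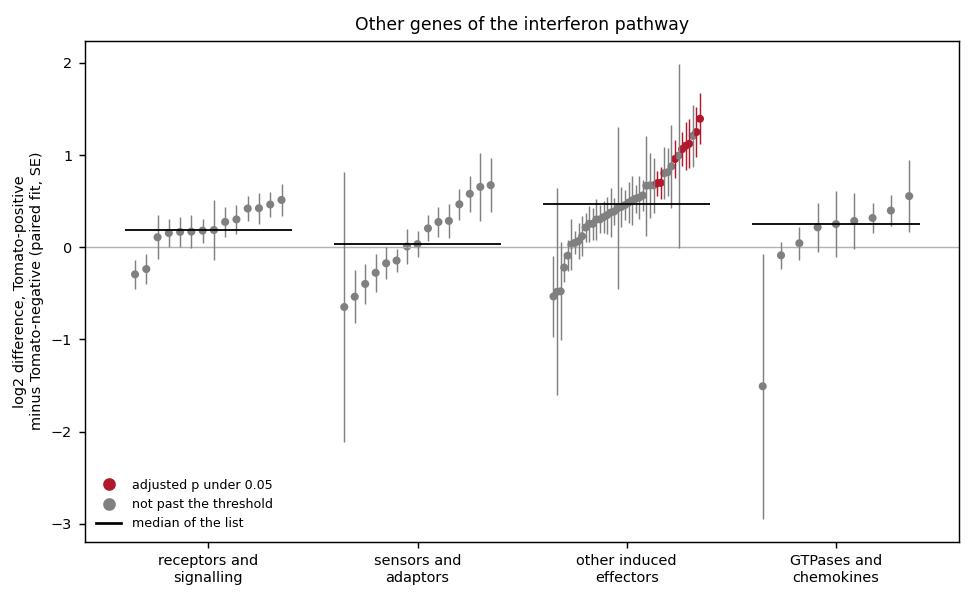
Paired log2 difference (Tomato-positive minus Tomato-negative) of the tested genes of the 4 pathway lists, 1 point a gene with its SE as a bar, by list, with the list's median as a black line. The 8 genes past the threshold lie in the list of other interferon-induced effectors, between 0.69 and 1.39.

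The title prefixes CKD627 and CKD523, each with 2 identifiers, were compared next; the labels do not say what a prefix stands for, so it is used as a name only. Over both Tomato groups (counts summed per identifier, edgeR), 13 of 58 members passed between CKD627 and CKD523 (23.3% of all tested genes did): 6 were higher in CKD627 (9.75% of all genes) and 7 lower (13.5%). Scaled by library size alone the split was 10 higher and 4 lower, and that scaling moved the median log2 difference of all genes to 0.185, against -0.00194 with TMM scaling. Ifitm3 was 2.62-fold higher in CKD627 (log2 1.39 ± 0.15, adjusted p 0.00012) and Ifitm10 differed by 2.27 ± 0.29 (adjusted p 0.000326). Oasl2 and Gbp9 were higher in CKD627 by 1.03 and 1.00, and Ifitm2 and Bst2 by 0.71 each. Lower in CKD627 were Irf5 (-1.70), Irf8 (-1.44), Mx2 (-1.38), Gbp2 (-0.76), Ifi27 (-0.70), Irf1 (-0.68) and Stat2 (-0.58).

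The difference between Tomato groups was then taken within each prefix. Oas2 had log2 differences of 2.71 in CKD627 and 2.89 in CKD523, Ifi47 1.16 and 1.26, and Irf1 1.08 and 0.67. A test of the difference between prefixes passed for 0 of 58 members in edgeR, against 0.0140% of all tested genes; at an unadjusted p under 0.05 there were 4 (6.9%), Gbp7, Ifi27, Ifi35 and Ifitm3, against 13.2% of all tested genes. Gbp7 had log2 differences of 1.14 in CKD627 and -0.52 in CKD523 (adjusted p of the difference 0.239). Ifi27 had -1.23 in CKD627 and -0.01 in CKD523 (adjusted p 0.179), from 45.5 and 46.4 CPM in Tomato-positive against 128 and 87.2 CPM in Tomato-negative libraries of CKD627, and 120 and 101 CPM against 106 and 105 CPM in CKD523. The median difference of the members was 0.41 in CKD627 and 0.51 in CKD523. Fitted on 2 libraries per group, 5 members passed in CKD627 alone (8.62%, against 2.43% of all tested genes) and 16 in CKD523 alone (27.6%, against 15.7%). With the prefix as a covariate in place of the pairs 14 passed (24.1%, against 10.7%).

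**Figure D5:**
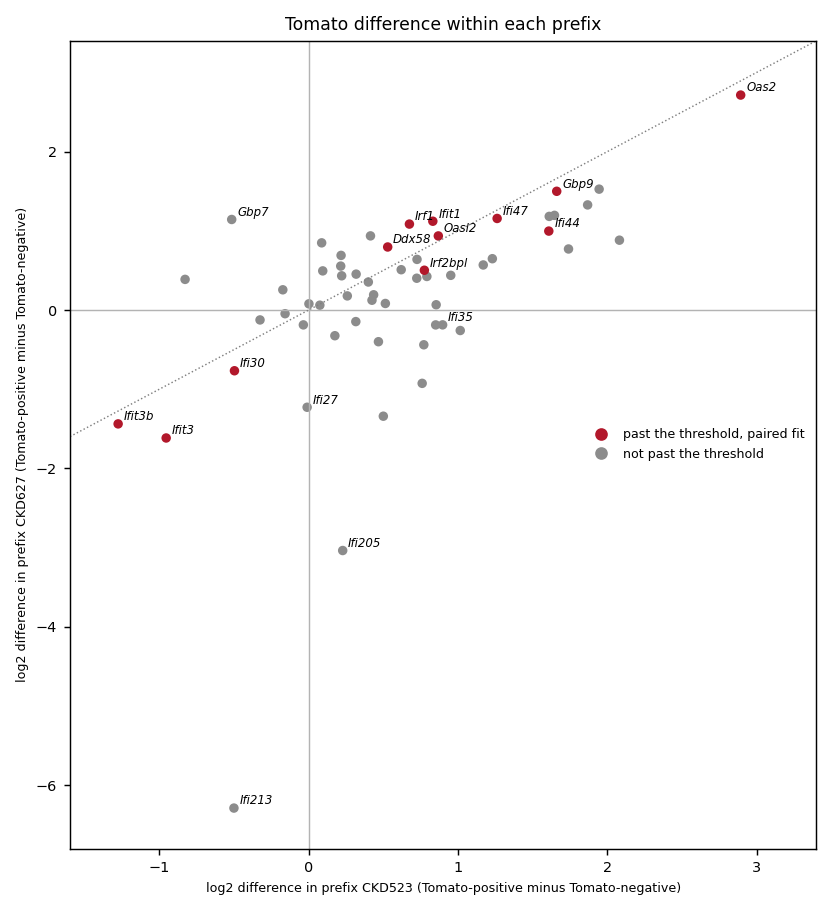
Log2 difference (Tomato-positive minus Tomato-negative) of each member within CKD627 (vertical axis) against that within CKD523 (horizontal axis), with a dotted line of equality. The 12 members past the threshold in the paired fit lie in the quadrants of equal sign. They were chosen by a fit on these same libraries with the same sign in all 4 pairs, so this could hardly differ. Ifi213, at the bottom, had 0 counts in both Tomato-positive libraries of CKD627, and its fitted value there is not a measure of size.

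Markers of other cells moved with both comparisons. Between Tomato groups, in the paired fit, 8 of 8 principal cell markers rose, where 3.82% of all genes rose. In that fit 5 of 6 loop of Henle markers and 3 of 5 distal tubule markers fell. So did 2 of 6 intercalated cell markers and 5 of 14 proximal tubule markers, where 3.81% of all genes fell. The part of these markers in the interferon genes was not tested. Macrophage and monocyte markers (14 listed, 10 tested) summed to 36.8 to 50.8 CPM in Tomato-positive and 46.5 to 64.9 CPM in Tomato-negative libraries, with Cd68 higher by 1.40 (edgeR paired adjusted p 0.0153). Csf1r, the receptor for a macrophage growth factor, averaged 10.9 CPM in Tomato-positive and 26.5 CPM in Tomato-negative libraries. Its paired log2 difference was -1.52 (edgeR adjusted p 0.0617). Itgam averaged 0.241 CPM in Tomato-positive libraries, near the floor of 3 counts (0.151 to 0.223 CPM), and 0.934 CPM in Tomato-negative libraries. For both genes every Tomato-positive library was below every Tomato-negative one. Over the 10 tested markers of this list the median paired log2 difference was -0.19. The defining marker Adgre1 had 28 counts in Tomato-positive CKD627_2, 0 in the other Tomato-positive libraries, and 4 to 7 counts in each Tomato-negative library. Lymphocyte markers (11 listed, 0 tested) summed to 0.371 to 1.24 CPM in Tomato-positive and 0.783 to 3.28 CPM in Tomato-negative libraries, with Cd3e, Cd3d, Nkg7 and Klrb1c at 0 counts in every library. Siglech, which marks plasmacytoid dendritic cells, the main makers of type I interferon, was at 0 as well; of the other listed markers of those cells, Ccr9 and Cox6a2 had at most 11 counts in a Tomato-positive and 21 in a Tomato-negative library, and Ly6d ranged between 0 and 10.2 CPM in Tomato-positive and between 0.175 and 3.63 CPM in Tomato-negative libraries. Neutrophil markers summed to at most 1.12 CPM in Tomato-positive and 2.94 CPM in Tomato-negative libraries, endothelial markers to 53.9 to 712 CPM and 118 to 605 CPM, and fibroblast markers to 82.1 to 163 CPM and 58.2 to 140 CPM. Between prefixes, 8 of 8 endothelial and 7 of 8 principal cell markers were higher in CKD627, where 9.75% of all genes were higher. In turn 14 of 14 proximal tubule markers were lower in CKD627, where 13.5% of all genes were lower. The part of these markers in the prefix differences was not tested.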

How the data were processed

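Whole-number counts per gene symbol for the 8 libraries were used as deposited. The column headers name subread for the alignments and do not name the counter. Genome build mm10, edgeR 3.32.1 and limma 3.46.0 are named per the submitters' processing notes. The sources used here do not give the counter's settings, annotation, strand or handling of reads with several matches, so close copies and overlapping genes may share counts. Per the labels' protocols, a kit for single cells gave the total RNA and NEBNext Ultra reagents the libraries. The members and gene lists were chosen with earlier results of these data known.

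Tests used edgeR 4.0.16 in R 4.3.3 (quasi-likelihood, TMM scaling, filterByExpr, Benjamini-Hochberg over 14284 genes, 2-sided, threshold 0.05), tested on simulated data; DESeq2 1.42.0 and limma 3.58.1 were alternatives. CPM is counts scaled to the library total. The main fit has no pairs. Libraries with the same title identifier deviated together from their group means (correlations 0.464, 0.321, 0.330 and 0.465, all over 0.1), so a paired fit, blocked on that identifier, stands beside it; libraries of another identifier but the same prefix correlated by 0.296 to 0.467, so the identifier and the prefix cannot be told apart as the source. Genes named in full were members past the threshold in either fit and a fixed list of core interferon genes, and for other lists up to 6 past the threshold by smallest p of the main fit. A few of the genes covered by these rules are not reported here.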

Additional observations from a re-analysis of the deposited data

Results flagged for a closer look

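In 3 of 116 groups of 4 libraries (58 members in 2 Tomato groups), 1 library lay far from the other 3; chance flags about 1 in 20 such groups. Rsad2, the gene of the antiviral enzyme viperin, had 18.3 CPM in the Tomato-negative library CKD627_2 and 8.77 to 9.78 CPM in the other Tomato-negative libraries. Ifi27l2a had 2.11 CPM in the Tomato-positive library CKD627_2 and 0.816 to 1.02 CPM in the other Tomato-positive libraries. Ifi213 had 1.02 CPM in the Tomato-positive library CKD523_3 and 0 in the other Tomato-positive libraries.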

How the results depend on the processing

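The 12 members past the threshold with pairs kept their sign in each of the 31 settings run. They were chosen by the paired fit on these same libraries and had the same sign in all 4 pairs. Their signs could therefore hardly turn, and the agreement is not a test of them. The count of members past the threshold was 1 without pairs and became 12 with the replicate block, 14 with the prefix as a covariate, 16 in CKD523 alone, 5 in CKD627 alone, 11 with DESeq2, and 0 with upper-quartile scaling, library size only, no count filter or limma-voom; without 1 library each it was 0 to 0, and without 1 pair each, with the block, 3 to 13. For the other pathway genes the count of 0 became 8 with the block, 10 with the prefix covariate, 14 in CKD523 alone, 2 in CKD627 alone, 8 with DESeq2 and 14 with DESeq2 and the block (0 to 0 without 1 library, 0 to 8 without 1 pair). For all genes the count of 85 became 1089 with the block, 1527 with the prefix covariate, 2236 in CKD523 alone, 347 in CKD627 alone, 45 without a filter, 1000 with DESeq2 and 2026 with DESeq2 and the block (6 to 29 without 1 library, 192 to 1324 without 1 pair).

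Signs also turned between Tomato groups for genes named above that were past the threshold in neither fit, and the cause was not tested. In CKD523 alone the log2 difference (Tomato-positive minus Tomato-negative) was -0.52 for Gbp7 and -0.17 for Irf2. In CKD627 alone it was -0.22 for Ifi35, -0.18 for Ifitm2, -0.086 for Ifnar2, -0.13 for Ifngr2, -1.38 for Irf5, -0.43 for Isg20, -0.016 for Sting1 and -0.46 for Usp18. Upper-quartile scaling gave -0.026 for Ifitm2, -0.032 for Isg20 and -0.0064 for Usp18. Isg20 was -0.0054 without a filter, -0.0024 in DESeq2 and -0.028 in limma-voom with the block. Irf5 was -0.63 with the replicate block, -0.64, -0.65 and -0.59 with the block and DESeq2's factors, upper-quartile factors or library size only, -0.66 with the block and no filter, -0.63 with the block and 10 counts in 4 libraries, -0.75 with DESeq2 and the block, -0.37 with the prefix covariate and -1.27 in limma-voom. Irf8, in the same order, was -0.050 with the block, then -0.065, -0.083 and -0.0095, -0.070, -0.051 and -0.065, and -0.12 in limma-voom. With 1 library or pair left out, values ran from -0.18 to 0.65 for Gbp7, -0.034 to 0.19 for Ifih1, -0.15 to 0.22 for Ifitm2, -0.021 to 0.60 for Ifitm3, -0.11 to 0.14 for Irf2, -1.31 to 0.47 for Irf5, -0.32 to 0.34 for Irf8, -0.19 to 0.21 for Isg20 and -0.60 to 0.42 for Usp18. Low counts limit several members, among them Irf4, Irf5, Ifi205, Ifi211 and Ifi213.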
